A study of Mus musculus with 4 samples.

Results

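The genes described here are the late placental gene clusters of the mouse: the prolactin-related Prl genes, the pregnancy-specific glycoprotein genes (Psg), the Ceacam genes, Tpbpa and Tpbpb, the placental cathepsins, and the single genes Plac1 and Plac8. They were chosen by symbol in the array annotation. The rule takes every symbol that starts with Prl or Psg and a digit or with Ceacam, and 16 further symbols. It found 47 of the 18193 genes on the array: 17 Prl, 7 Psg, 11 Ceacam, 2 Tpbp and 8 cathepsin genes, with Plac1 and Plac8. Of the 16 listed symbols 12 were measured, and Syna, Synb, Gcm1 and Csh were not analysed here. RefSeq lists 25 Prl, 13 Psg and 16 Ceacam genes of these name patterns, so 8, 6 and 5 of them were not analysed. Another 5 probe sets carried several symbols, at least 1 of them fitting the rule, and no gene was named from these.

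Expression was measured in E14 cells, a line of mouse embryonic stem cells, on 4 Affymetrix arrays. The cells of 2 arrays received a control RNAi and those of 2 arrays Npac RNAi, a short hairpin RNA against Npac, the older name of the chromatin protein gene Glyr1. The medium held 15% serum and LIF at 1000 units per ml. Cells were placed under puromycin 24 hours after transfection and selected for 3 days, and the labels give this protocol for both groups. The labels do not say what the control hairpin targets or whether arrays of a group came from separate cultures, so p-values measure only the spread between arrays, which may be technical.

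The placenta is built by trophoblast, the first lineage to separate from the embryo proper. In rodents, the trophoblast cells of the formed placenta (giant cells, spongiotrophoblast, labyrinth) switch on large arrays of duplicated genes that encode secreted hormones, glycoproteins and proteases. Embryonic stem cells come from the inner cell mass and normally do not form trophoblast. The regulators that open the trophoblast program, such as Cdx2, Gata3 and Eomes, act well before these terminal gene arrays are used.

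As a check of the labels, Glyr1 itself gave 11.30 and 11.32 (log2 RMA signal, the scale of every level below) on the control RNAi arrays and at 10.23 and 10.20 on the Npac RNAi arrays. The Npac RNAi arrays thus held 46.9% of the control level (difference -1.09 on the log2 scale, SE 0.0458, limma adjusted p = 0.00101). The only Glyr1 probe set analysed ends in _s_at, a mark of probes that can bind more than 1 transcript. No other probe set checks this percentage. All 8 embryonic stem cell markers examined, among them Pou5f1, Nanog and Sox2, lay above the lower quartile of all genes, with a median level of 12.69. Of these, 6 were called lower (median difference of the 8 -0.35), against 18.7% of all genes. Sox2 (-0.14) and Dppa5a (-0.04) were not called. Arrays of a group correlated at 0.998 and arrays of different groups at 0.987 to 0.989.

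Most of the late placental genes read at the bottom of the array in both groups, and 2 single genes, Plac1 and Plac8, rose after Npac depletion. The lower quartile of all genes lay at 5.53 and 5.57 on the control arrays and at 5.48 and 5.42 on the Npac RNAi arrays. Below it were 37 of the 47 genes (78.7%) on each control array and 38 (80.9%) on each Npac RNAi array. The same 37 genes were below it on all 4 arrays, Ceacam10 was below it on the Npac RNAi arrays only, and 9 genes were never below it. The median of the 47 was 3.96 and 4.05 on the control arrays and 3.97 and 3.94 on the Npac RNAi arrays, against array medians of 7.42 to 7.58. Below even the 5th percentile of all genes, 3.78 to 3.93, were 15 members on all 4 arrays, 9 of them Prl genes. Probe sets differ in how brightly they report the same amount of RNA, and no detection call was used here, so a low reading does not show that a transcript was absent. It also limits what a fold change can show, since a change in a signal near background is compressed.

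**Figure D1:**
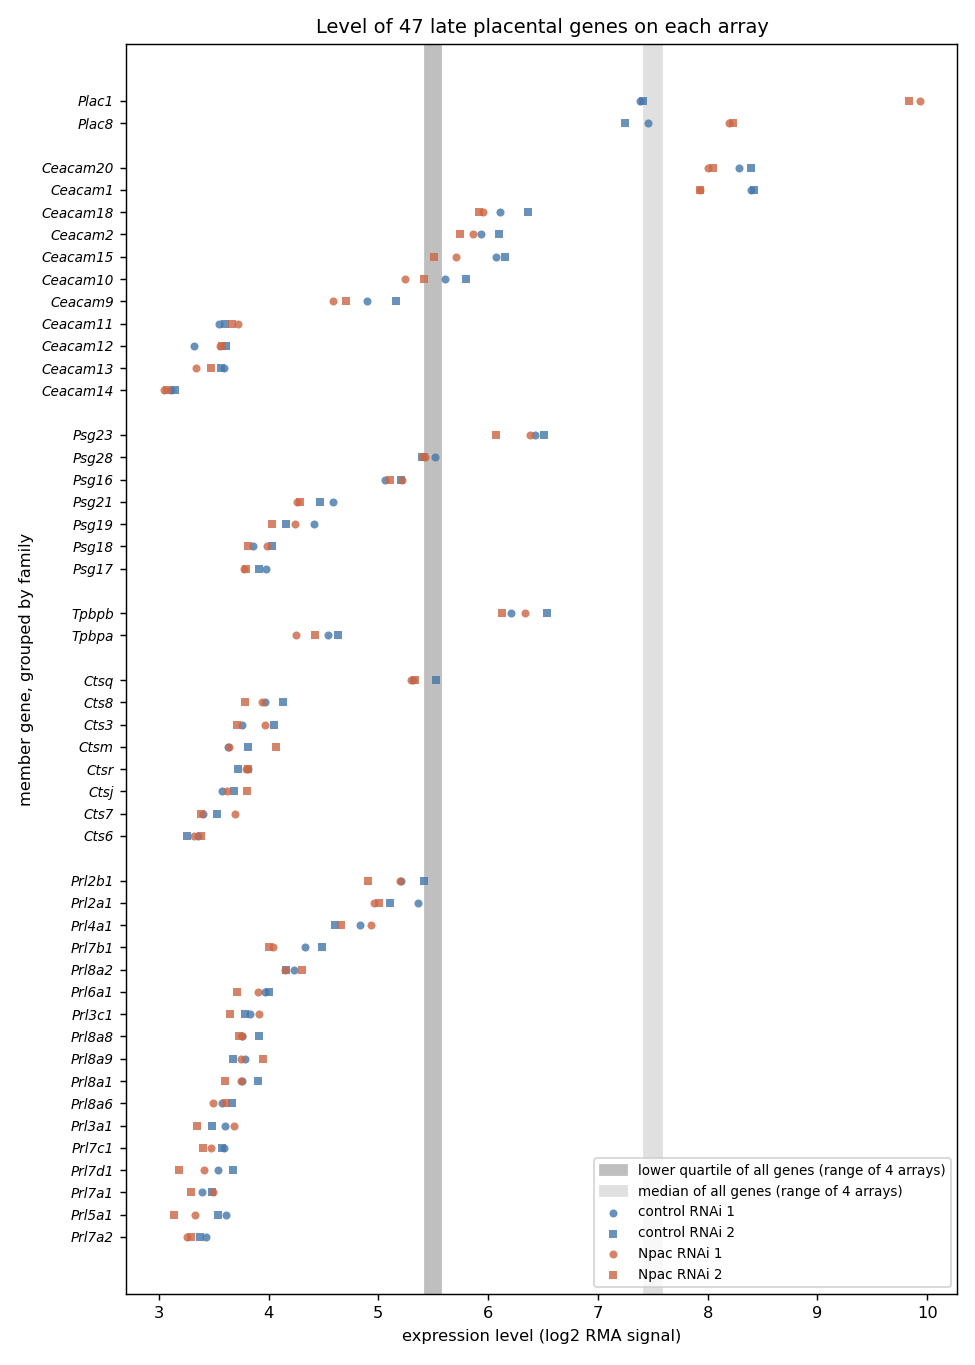
Level of each of the 47 late placental genes (horizontal axis, log2 RMA signal) on the 2 control RNAi arrays (blue) and the 2 Npac RNAi arrays (orange), grouped by family. The dark band is the range over arrays of the lower quartile of all genes and the light band that of the median. The Npac RNAi values of Plac1 and Plac8 lie right of the median band and of their control values, while 37 genes stay left of the lower quartile of every array.

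In the limma test across all 18193 genes, 2 members were called higher in Npac RNAi and 7 lower at an adjusted p under 0.05, and 38 were not called. Of all genes 40.8% were called, 22.1% higher and 18.7% lower. The share of members called lower (14.9%) was thus close to that background, while the share called higher was 4.26%. With each array centred on its median the members gave 2 higher and 20 lower, where 15.6% and 39.4% of all genes were called. With scaling on the spike-in controls they gave 2 and 45, against 4.98% and 81.9% of all genes, and after quantile normalization 3 and 5, against 17.9% and 22.6%. Centring moved the median log2 difference over all genes from -0.04 to -0.18 and spike-in scaling moved it to -0.58, so these counts hold shifts shared by all genes. None of the 7 lowered members changed by as much as 1.5-fold, whereas both raised members did. The background for a change of that size was 8.09% of genes higher and 2.04% lower.

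On the deposited values, most genes near the bottom of the array read lower after Npac RNAi, though not all. Over the 4548 genes with a mean below the lower quartile, the median log2 difference was -0.12, 76.7% of differences were negative, and 3.21% of genes were called higher and 15% lower. The 37 members in that range had a median of -0.07 with 70.3% of differences negative, and 0 were called higher and 3 lower (8.11%). At an unadjusted p under 0.05, 15 of the 47 members passed limma, 2 higher (4.26%) and 13 lower (27.7%). Of all genes 25.9% passed higher and 26.3% lower, and of genes below the lower quartile 4.62% and 25.1%. Replicate arrays differed more for the members than for the typical gene, with a median within-group SD of 0.106 against 0.0652 for all genes and 0.108 for genes below the lower quartile. Both Npac RNAi arrays lay below both control arrays for 23 members and above them for 3, against 40.1% and 34.1% of all genes, and the groups overlapped for 21. Among the 4548 genes with a mean below the lower quartile, both lay below for 2028 and above for 400.

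**Figure D2:**
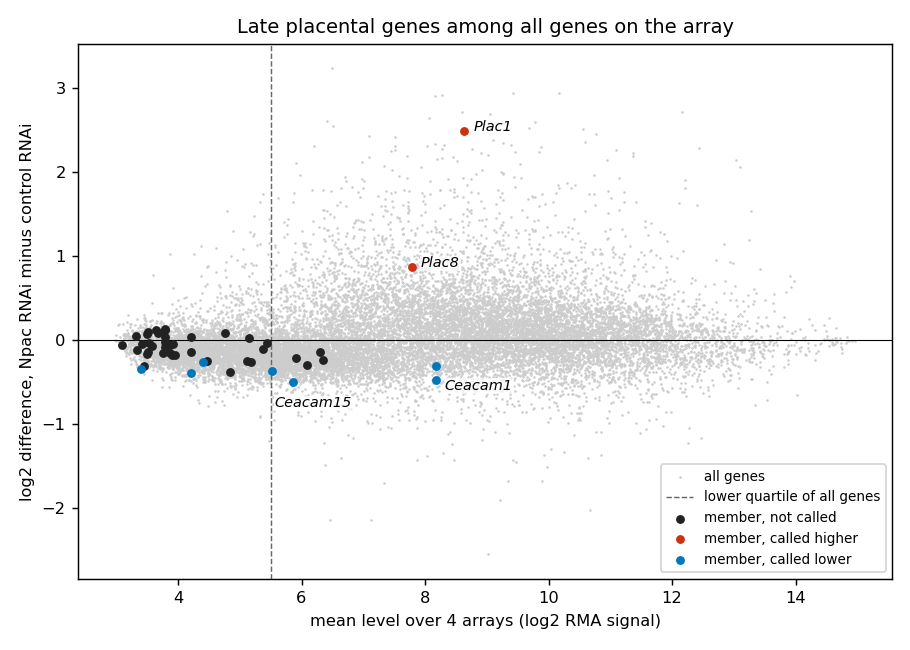
Log2 difference between Npac RNAi and control RNAi (vertical axis) against the mean level over 4 arrays (horizontal axis, log2 RMA signal) for all 18193 genes (grey) and the 47 members (black where not called, red where called higher, blue where called lower). Plac1 at 2.49 and Plac8 at 0.86 stand above the other members. Most of those lie left of the dashed lower quartile and slightly under 0, as most grey points there do.

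Plac1 changed most. The gene is X-linked, encodes a secreted or membrane-associated protein made by trophoblast, and is needed for a normal placenta. It read 7.38 and 7.41 on the control arrays and 9.93 and 9.83 on the Npac RNAi arrays. The groups were far apart, and the gap was many times the spread within either. With 2 arrays in each group, the rise was 5.61-fold (2.49 on the log2 scale, SE 0.0572, limma adjusted p = 0.000704). It was called in each of 20 alternative settings, between 1.95 with spike-in scaling and 2.54 without Npac array 2.

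Plac8 encodes a small cysteine-rich protein found in trophoblast, in myeloid cells and in some epithelia. It read 7.45 and 7.25 on the control arrays and 8.19 and 8.23 on the Npac RNAi arrays. The Npac RNAi arrays were both higher, without overlap, and the control arrays were farther apart than the Npac RNAi arrays. The rise was 1.82-fold (0.86 on the log2 scale, SE 0.0834, limma adjusted p = 0.00432). It was 0.32 with spike-in scaling (adjusted p = 0.01) and lost its call without moderation of the variances (adjusted p = 0.0658), within a range of 4.26e-05 to 0.0658 over 20 settings.

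Because Plac8 is also a myeloid and epithelial gene, markers of those cells were read beside it. The background for the counts below was 22.1% of all genes called higher and 18.7% lower. Of 10 markers of myeloid and other blood cells 2 were higher (Cd68 and Csf1r) and 2 lower (Laptm5 and Tyrobp), with a median difference of -0.01, and their mean level was 6.05 and 6.09 on the control arrays and 6.10 and 6.11 on the Npac RNAi arrays. The means of 5 of the 10 lay below the lower quartile. The defining leukocyte genes Ptprc (3.55 to 3.86) and Itgam (4.13 to 4.27) were below it on all arrays, while Laptm5 read 10.56 to 11.06 and Cd68, a lysosomal protein gene of macrophages and other cells, rose from 7.87 and 7.81 to 8.84 and 8.88 (1.02, limma adjusted p = 0.00133). The part of blood cells in the Plac8 result was not tested. Of 10 markers of gut and surface epithelium 7 were higher and 0 lower, with a median difference of 0.58. Their mean level went from between 8.28 and 8.36 to between 9.11 and 9.15. The higher ones were Cldn4, Krt19, Elf3, Cldn6, Epcam, Cdh1 and Vil1, while Cldn3, Lgals4 and Muc1 were not called. All 10 had means at or above the lower quartile, where 28.4% of genes were called higher. Cdh1 (12.04 and 11.89) and Epcam (10.54 and 10.56) were already high on the control arrays, so the list does not measure such epithelium alone. The part of such epithelial expression in the Plac1 and Plac8 results was not tested. In RNA from a whole culture, a few cells with a high level cannot be told apart from many cells with a low one.

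The sequences before the start sites of Plac1 and Plac8, the genes that rose, are shown with those of Ceacam1, which fell, and of Tpbpa, a placental marker read near the bottom of the array. Each is the 250 bases before a start, on the minus strand of GRCm38.p6, from RefSeq, with every CpG dinucleotide in capitals. The windows are chrX:53240111-53240360 and chrX:53114406-53114655 for the upstream and downstream starts of Plac1, chr5:100572206-100572455 and chr5:100563097-100563346 for those of Plac8, chr7:25477626-25477875 for Ceacam1 and chr13:60941937-60942186 for Tpbpa. The array does not tell which start of Plac1 or Plac8 was used.
Plac1, upstream start: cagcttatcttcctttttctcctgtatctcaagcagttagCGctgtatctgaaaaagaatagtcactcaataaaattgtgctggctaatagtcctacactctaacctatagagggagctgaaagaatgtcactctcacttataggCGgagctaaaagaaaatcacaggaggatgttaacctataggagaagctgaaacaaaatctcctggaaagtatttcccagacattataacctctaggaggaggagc
Plac1, downstream start: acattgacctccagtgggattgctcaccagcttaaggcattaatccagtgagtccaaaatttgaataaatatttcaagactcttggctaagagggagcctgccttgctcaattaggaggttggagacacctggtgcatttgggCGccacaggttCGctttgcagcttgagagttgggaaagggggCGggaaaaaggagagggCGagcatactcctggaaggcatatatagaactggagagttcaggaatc
Plac8, upstream start: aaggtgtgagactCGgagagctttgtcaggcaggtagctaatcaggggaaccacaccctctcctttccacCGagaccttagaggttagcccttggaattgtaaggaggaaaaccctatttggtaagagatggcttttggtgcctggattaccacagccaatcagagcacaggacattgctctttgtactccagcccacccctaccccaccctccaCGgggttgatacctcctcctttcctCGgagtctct
Plac8, downstream start: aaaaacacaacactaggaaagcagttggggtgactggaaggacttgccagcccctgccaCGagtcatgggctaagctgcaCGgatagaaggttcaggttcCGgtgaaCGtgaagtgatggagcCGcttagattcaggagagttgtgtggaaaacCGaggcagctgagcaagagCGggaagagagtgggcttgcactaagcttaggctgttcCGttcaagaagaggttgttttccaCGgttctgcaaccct
Ceacam1: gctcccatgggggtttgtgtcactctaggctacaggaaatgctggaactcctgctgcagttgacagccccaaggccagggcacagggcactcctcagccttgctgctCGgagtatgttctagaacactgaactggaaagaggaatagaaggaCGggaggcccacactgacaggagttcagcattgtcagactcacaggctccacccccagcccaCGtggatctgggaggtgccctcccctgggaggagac
Tpbpa: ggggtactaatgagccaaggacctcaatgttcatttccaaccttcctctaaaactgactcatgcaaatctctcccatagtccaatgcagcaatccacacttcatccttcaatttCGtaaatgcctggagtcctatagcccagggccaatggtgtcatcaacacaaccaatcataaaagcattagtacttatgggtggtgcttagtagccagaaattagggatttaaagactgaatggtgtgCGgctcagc

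CpG dinucleotides were few in these windows: 2 and 4 for Plac1, 4 and 9 for Plac8, 3 for Ceacam1 and 2 for Tpbpa. The same held across the members. Windows were found for 42 of the 47 genes, 50 in all, some of which overlap or belong to near-identical relatives. Their median was 2 CpG, and 49 of the 50 (98%) held at most 5, the exception being the downstream start of Plac8. At most 5 were held by 49.6% of all 32851 windows given, with a median of 6, and for 28 windows of 21 trophoblast regulator genes described below the median was 18.5. Plac1, which rose, and Tpbpa, which was not called, each had a window with 2.

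A few short motifs were searched on both strands of the same windows. The Gata-type motif AGATAA was in 14 of the 50 member windows (28%) and in 9.99% of all windows, the TATA box TATAAA in 11 (22%) and 12.4%, and the Tead-type motif GGAATG in 9 (18%) and 12.6%. The AP-2-type motif GCCNNNGGC was in 6 (12%) and 13.7%, and the octamer ATGCAAAT in 5 (10%) and 1.6%. These shares were not matched for base composition: the median share of G and C was 44.4% in member windows and 52.4% in all windows. Windows that overlap or belong to relatives were each counted. The octamer count, for example, holds overlapping windows of Ceacam12 and those of the relatives Tpbpa and Tpbpb. Among the windows shown, the upstream start of Plac1 held 1 Gata-type match on the reverse strand, from 246 to 241 bases before the start. Tpbpa held an octamer from 190 to 183 and an AP-2-type match from 114 to 106 bases before the start, and the other 4 windows held none of the 5. No match overlapped another there. Matches to such short strings are a description of the letters and not of factor binding.

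The Ceacam genes, cell adhesion molecules of the immunoglobulin family of which several in rodents are made by trophoblast and others by epithelia, held 4 of the 7 lowered members. Of 11 measured, 0 were higher and 4 lower, against 22.1% of all genes higher and 18.7% lower. The median difference was -0.30, against -0.04 over all genes. Differences were negative for 9 of the 11 on the deposited values and after quantile normalization, for 8 after cyclic loess and for 11 after centring or spike-in scaling.

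Ceacam1, an adhesion molecule of epithelial and other cells, fell most clearly. It read 8.39 and 8.42 on the control arrays and 7.93 on both Npac RNAi arrays (difference -0.48, SE 0.046, limma adjusted p = 0.00427). Replicates were almost superimposed, and the groups did not overlap. All 8 of its probe sets had negative differences, from -0.48 to -0.09, and in 7 of the 8 the groups did not overlap. The brightest probe set ends in _x_at, a mark of probes that can bind other transcripts. Only without the _s_at and _x_at probe sets was the call lost among settings that keep the threshold (difference -0.10, adjusted p = 0.218, range over 20 settings 9.78e-05 to 0.218), and its value is uncertain in that respect.

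Ceacam20, known from the microvilli of gut epithelium, read 8.28 and 8.39 against 8.005 and 8.05, a difference of -0.31 (SE 0.0599, limma adjusted p = 0.0201). Ceacam15 read 6.07 and 6.15 against 5.71 and 5.51, a difference of -0.50 (SE 0.087, limma adjusted p = 0.0157). Ceacam10 read 5.60 and 5.80 against 5.24 and 5.42, a difference of -0.37 (SE 0.101, limma adjusted p = 0.0474). In all 3 genes both Npac RNAi arrays were the lower ones. The SDs within the control and Npac RNAi groups were 0.0765 and 0.0293 for Ceacam20 and 0.0539 and 0.144 for Ceacam15. For Ceacam10 they were 0.137 and 0.127. The call on Ceacam10 was lost without any 1 of the 4 arrays, after quantile normalization, after cyclic loess and with robust moderation. That on Ceacam15 was lost without either control array and with the replicate block, and that on Ceacam20 without control array 2, Npac array 1 or Npac array 2. Their limma adjusted p ran from 0.000226 to 0.203 for Ceacam10, from 0.00018 to 0.118 for Ceacam15 and from 0.000192 to 0.101 for Ceacam20.

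Of the other Ceacam genes, Ceacam9 narrowly missed the threshold (4.90 and 5.16 against 4.59 and 4.70, difference -0.38, limma adjusted p = 0.0501). Ceacam18 (-0.30, limma adjusted p = 0.0712) and Ceacam2 (-0.22, limma adjusted p = 0.101) lay above the lower quartile, with the Npac RNAi arrays below the controls but no call. Ceacam11, Ceacam12, Ceacam13 and Ceacam14 stayed between 3.05 and 3.73 on every array. Ceacam11 had 6 probe sets with differences from -0.34 to 0.12, so its sign depends on the probe set, and on its brightest probe set it was called higher after quantile normalization and cyclic loess. With the median of its probe sets it was called lower.

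**Figure D3:**
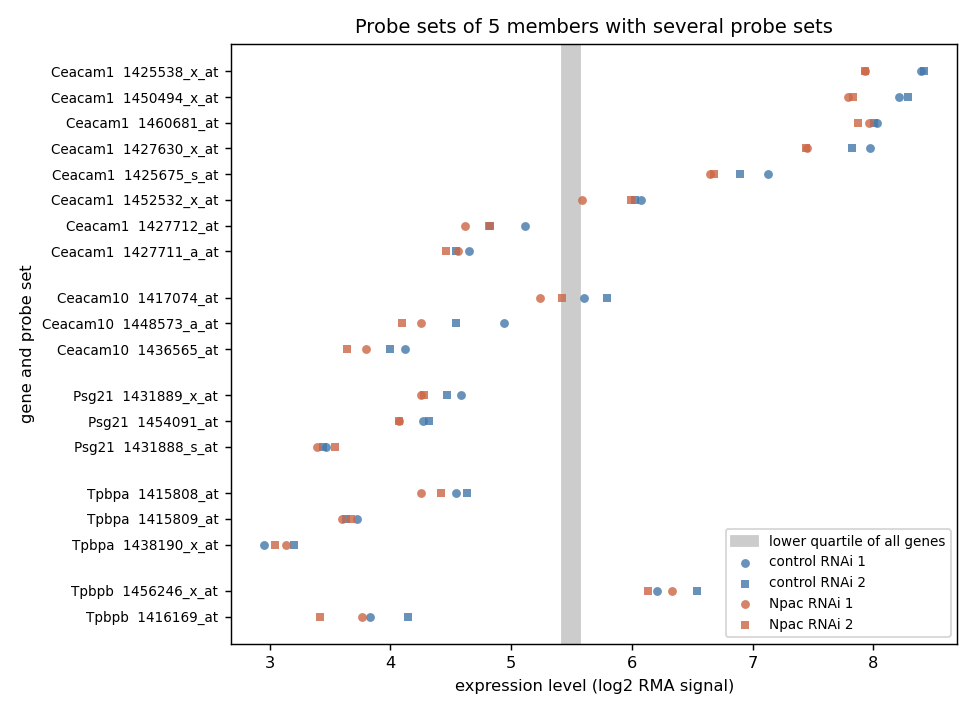
Level (horizontal axis, log2 RMA signal) of each probe set of Ceacam1, Ceacam10, Psg21, Tpbpa and Tpbpb on the control RNAi arrays (blue) and Npac RNAi arrays (orange), with the lower quartile of all genes as a grey band. Probe sets of 1 gene differ widely in level, from 4.55 to 8.17 for Ceacam1 and from 3.79 to 6.30 for Tpbpb, and the orange points lie left of the blue ones in 7 of the 8 Ceacam1 probe sets and in all 3 of Ceacam10.

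The Psg genes encode glycoproteins that trophoblast secretes into the maternal blood. Of 7 measured, 6 lay below the lower quartile on all arrays, 0 were called higher and 1 lower, and the median difference was -0.14. Of all genes 18.7% were called lower, and of those below the lower quartile 15%, so 1 of 7 is near the background. The call fell on Psg21, which read 4.59 and 4.47 on the control arrays and 4.26 and 4.28 on the Npac RNAi arrays (difference -0.26, SE 0.0601, limma adjusted p = 0.0322). Its groups did not overlap, but the level was far below the lower quartile. Among its 3 probe sets the difference ran from -0.26 to 0.01, and the call was lost without any 1 array, with the replicate block, with the mean of probe sets and after quantile normalization or cyclic loess (limma adjusted p from 0.000159 to 0.229 over 18 settings).

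Psg23 was the Psg gene never below the lower quartile. It read 6.42 and 6.51 on the control arrays and 6.38 and 6.07 on the Npac RNAi arrays (difference -0.24, SE 0.118, limma adjusted p = 0.167), the drop resting mainly on Npac array 2. The other 5, Psg16, Psg17, Psg18, Psg19 and Psg28, stood between 3.78 and 5.51 on every array. The brightest probe sets of 4 of the 7 Psg genes end in _s_at or _x_at, so relatives may add to their signal. Psg23 is among these 4, and its only probe set with 1 symbol ends in _x_at. A probe set that names both Psg21 and Psg23 read 3.67 to 4.12, below the lower quartile.

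The Prl genes encode placental lactogens and prolactin-like hormones of giant cells, spongiotrophoblast and, for some such as Prl8a2, the decidua. Prl2c1, Prl2c2, Prl2c3, Prl2c5, Prl3b1, Prl3d1, Prl3d2 and Prl3d3 were not analysed, so the values below do not cover these 8 family members. All 17 measured lay below the lower quartile on all 4 arrays, and no value exceeded 5.41. Of the 17, 0 were called higher and 2 lower, against 3.21% higher and 15% lower of all genes below the lower quartile, so 2 of 17 is near the background. The median difference was -0.12, as it was for all genes in that range. Negative differences numbered 14 on the deposited values, 10 after quantile normalization, 9 after cyclic loess and 17 after centring, with medians of -0.06 after quantile normalization, -0.01 after cyclic loess and -0.27 (-0.265) after centring. The size of the family's shift thus depended on the scaling.

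The Prl calls were Prl7b1 and Prl5a1. Prl7b1, a hormone gene of invasive trophoblast, read 4.33 and 4.49 against 4.04 and 4.01 (difference -0.39, SE 0.0702, limma adjusted p = 0.0173). Prl5a1 read 3.62 and 3.54 against 3.33 and 3.14 (difference -0.34, SE 0.0834, limma adjusted p = 0.0366). In both the control arrays were the higher ones without overlap, at levels among the lowest of the array. The call on Prl7b1 was lost without control array 2, Npac array 1 or Npac array 2 and with the replicate block, and that on Prl5a1 without control array 1, control array 2 or Npac array 2 and after cyclic loess. Their limma adjusted p ran from 0.000194 to 0.111 for Prl7b1 and from 0.000231 to 0.17 for Prl5a1.

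The other 15 Prl genes had differences from -0.31 to 0.12 and adjusted p from 0.0746 to 0.864. The highest signals were those of Prl2b1 (5.21 and 5.41 against 5.19 and 4.90), Prl2a1 (5.36 and 5.11 against 4.96 and 5.01) and Prl4a1 (4.83 and 4.60 against 4.93 and 4.66). Of these 3, Prl4a1 overlapped between groups and the others did not. Prl8a9 had the highest difference of the family (0.12) and overlapped between groups, with 3.78 and 3.67 against 3.75 and 3.94.

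Tpbpa and Tpbpb mark the ectoplacental cone and the spongiotrophoblast that grows from it. Tpbpa read 4.54 and 4.63 on the control arrays and 4.25 and 4.42 on the Npac RNAi arrays (difference -0.25, SE 0.0799, limma adjusted p = 0.0689). Its other 2 probe sets gave -0.04 and 0.01. Tpbpb read 6.21 and 6.54 against 6.33 and 6.13 (difference -0.14, SE 0.14, limma adjusted p = 0.458), with overlapping groups. That value comes from an _x_at probe set, and the gene's other probe set read 3.42 to 4.15. The place of Tpbpb above the lower quartile therefore rests on the choice of probe set.

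The placental cathepsins are cysteine proteases of the rodent placenta, duplicated from a cathepsin L-like ancestor. All 8 measured (Cts3, Cts6, Cts7, Cts8, Ctsj, Ctsm, Ctsq and Ctsr) lay below the lower quartile on all arrays and none was called on the deposited values, with adjusted p from 0.166 to 0.746. Differences ran from -0.18 for Cts8 to 0.13 for Ctsm, and groups overlapped for 7 of the 8. Ctsm, whose Npac RNAi arrays were the farthest apart of any member (SD 0.309), read 3.63 and 3.81 on the control arrays and 3.63 and 4.07 on the Npac RNAi arrays. The median difference was 0.04 on the deposited values, 0.16 after cyclic loess and -0.10 after centring. Among the 8, 0 were called lower before centring, 1 after it and 8 with spike-in scaling, of which the latter holds the shift of all genes. Differences were negative for 3 of the 8 on the deposited values and for 8 after centring.

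All 17 Prl genes lie on chromosome 13 in RefSeq, as do the Tpbp genes and the cathepsins, which form an array of their own. The Psg and Ceacam genes lie on chromosome 7. Of the 4 measured genes flanking the Prl array, 1 was called: Sox4, a transcription factor gene and the nearest measured one beyond Prl5a1, read 10.25 and 10.20 on the control arrays and 10.95 and 10.98 on the Npac RNAi arrays (difference 0.74, SE 0.0493, limma adjusted p = 0.00208). On the other side Prl, the pituitary hormone gene, read 5.10 to 5.43 (difference -0.15, limma adjusted p = 0.339). The outer neighbours Hdgfl1 (-0.0045) and Cdkal1 (-0.06) were not called. Inside the Tpbp and cathepsin array, Ctla2a, which encodes a cathepsin inhibitor-like protein, read 3.85 and 3.81 against 3.93 and 3.94 (difference 0.11, limma adjusted p = 0.136). Of the 4 genes flanking that array 4930486L24Rik was called lower (-0.45, limma adjusted p = 0.0471), and Ctla2b (0.24), Gm3604 (-0.15) and Zfp935 (-0.03) were not called. These neighbours were chosen by position after the values of the members were seen.

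Genes of the trophoblast program that act before or beside these families were read from another list. It was chosen with earlier results of these data known, so its counts are a description and no independent support. Of 26 measured trophoblast regulators, 21 were higher and 2 lower, with a median difference of 0.87, and 1 had a mean below the lower quartile. Of all genes at or above the lower quartile, 28.4% were called higher and 20% lower. Ascl2, a spongiotrophoblast transcription factor gene, read 7.66 and 7.75 on the control arrays and 10.38 and 10.40 on the Npac RNAi arrays (2.69, SE 0.0551), with no overlap between groups. Gata3 (2.32, SE 0.0474) and Gata2 (2.27, SE 0.0539), which encode activators of placental genes, also rose, each with a limma adjusted p of 0.000704. The rises of Eomes (1.24, SE 0.0689, limma adjusted p = 0.00156) and Cdx2 (0.63, SE 0.104, limma adjusted p = 0.0142) were smaller. The lower ones were Rxra (-0.39, SE 0.0477, limma adjusted p = 0.00693), a nuclear receptor gene, and Sox21 (-0.33, SE 0.0668, limma adjusted p = 0.0225). The 3 without a call were Elf5 (0.42), Tfeb (0.13) and Esx1 (0.04), named after their values were seen. The call on Rxra was lost with the median of probe sets, and that on Sox21 without either control array, without Npac array 2 and with the replicate block. The regulators had a median level of 8.64 against 3.92 for the late placental genes, and the difference in response between these groups was not tested.

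Of 21 measured genes of placental function and structure, 10 were higher and 5 lower, with a median difference of 0.21, and 6 had a mean below the lower quartile. The shares over all genes were 22.1% called higher and 18.7% lower. The growth factor gene Igf2 (2.72, SE 0.0476), the cell cycle inhibitor gene Cdkn1c (2.30, SE 0.0611) and the keratin gene Krt18 (2.15, SE 0.0543) rose, each with a limma adjusted p of 0.000704. Ly6e, whose product is the receptor for the fusion protein syncytin-A, fell from 8.35 and 8.45 to 7.27 and 7.42 (-1.05, SE 0.0747, limma adjusted p = 0.00234). That is an _s_at probe set, and the difference was -0.71 with the mean of probe sets and -0.37 without the _s_at and _x_at ones, called in both. Cyp11a1, which starts steroid hormone synthesis, fell by 0.73 on the log2 scale (SE 0.0879, limma adjusted p = 0.00686), and the difference was -0.31 with the median of its probe sets, where the call was lost (limma adjusted p = 0.0852, range 6.25e-05 to 0.0852). Slc16a1, a lactate transporter of the labyrinth, fell by 0.47 (SE 0.058, limma adjusted p = 0.00723). Without moderation of the variances the calls on Cyp11a1 (adjusted p = 0.0822) and Slc16a1 (adjusted p = 0.0636) were lost. Both lists hold genes used in other tissues, so they do not measure placental cells alone.

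**Figure D4:**
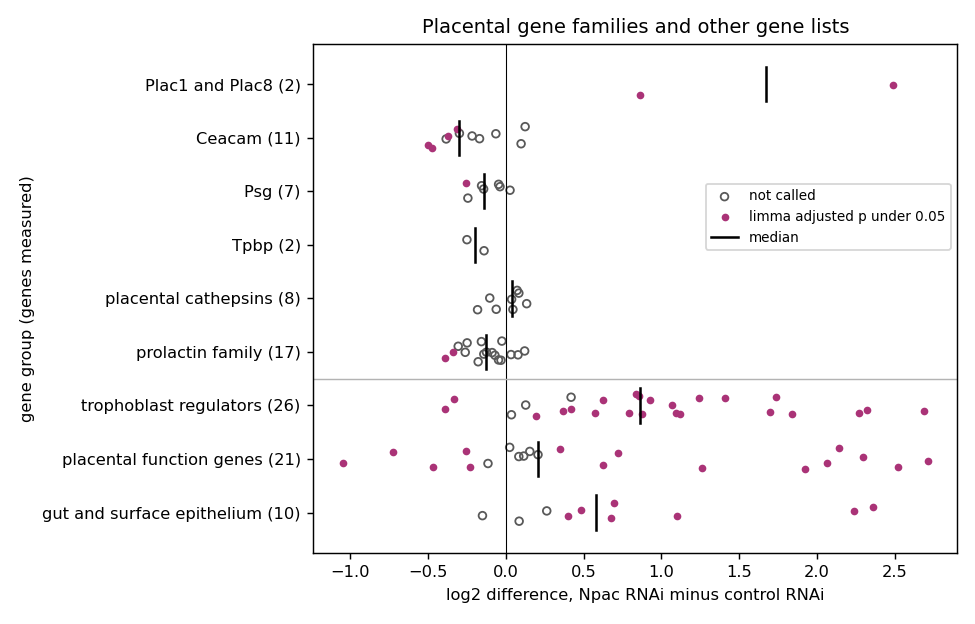
Log2 difference between Npac RNAi and control RNAi (horizontal axis) of each gene in the late placental families (above the line) and in 3 other gene lists (below it), with the number of genes measured in brackets. Filled points passed limma at an adjusted p under 0.05 and the bar is the group's median. The Prl, Psg, Tpbp, cathepsin and Ceacam genes lie between -0.50 and 0.13, while the trophoblast regulators have a median of 0.87.

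Other cell types that such a culture could hold were also read, against a background of 22.1% of all genes called higher and 18.7% lower. Of 10 fibroblast markers 1 was higher and 2 lower (median -0.05, mean level 5.96 and 6.04 on the control arrays, 5.91 and 5.97 on the Npac RNAi arrays), and of 10 endoderm markers 2 were higher and 3 lower (median 0.01, mean level 7.65 and 7.73 against 7.71 and 7.79). The parts of fibroblasts and endoderm in the results above were not tested.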

How the data were processed

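RNA of 4 arrays (2 per group, grouped by sample title) was analysed. The deposited values are log2 signals per probe set. The submitters' processing notes name RMA, and no software or version for it is known from the labels. The log2 scale was inferred from the values. RMA equalises arrays, so changes shared by most genes are removed. Of 45101 probe sets, 64 were controls, 34945 carried 1 symbol, 932 several and 9160 were not named. A gene took the values of its brightest probe set (mean of 4 arrays), with no filter on dim values (18193 genes). The test was that of limma 3.58.1, run under R 4.3.3 (lmFit, eBayes, group as the only term; 2 residual and 2.28 prior degrees of freedom) with Benjamini-Hochberg adjustment over all genes, and calls were made at 0.05. The procedure was tested on simulated data. Standard errors are limma's moderated ones. The number of arrays limits precision.

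The members and gene lists were chosen with earlier results of these data known. Named genes are Glyr1, every called member, the 10 members with the highest mean, Tpbpa, Plac1 and Plac8, and up to 3 higher and 3 lower called genes of the regulator and function lists by smallest adjusted p. Other members were named as examples after their values were seen. All 47 member symbols matched RefSeq by Entrez identifier. Alternatives were other variance models, normalizations, filters, probe set choices, thresholds, a replicate block and fits without each array. The crossed block and the dimmest probe set were added after the data were seen.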

Additional observations from a re-analysis of the deposited data

Results flagged for a closer look

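The poly-A spike-in controls, which are foreign transcripts and no part of the gene comparisons, read higher on the Npac RNAi arrays than on the control arrays. Their mean difference was 0.54 on the log2 scale, with all 24 probe sets higher. These probe sets measure only a few transcripts and are not independent. Relative to them Plac1 rose by 1.95 and Plac8 by 0.32.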

How the results depend on the processing

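Plac1 was called higher in every alternative run and Plac8 in all but the fit without moderation, which called 1 member higher (Plac1) and 1 lower (Ceacam1). The number of lowered members, 7 on the deposited values, was 20 after centring and 45 with spike-in scaling, 4 after cyclic loess, 4 of the 10 members left by a filter at the lower quartile, 2 of the 4 left by a filter at the median, 1 at an adjusted p under 0.01 and 0 at a minimum of 1.5-fold (15 members passed limma at an unadjusted p under 0.05). With 1 array left out it was 1 to 5 (1 without control array 2, 2 without Npac array 2, 4 without Npac array 1), the number raised was 2 each time, and the members' median ran from -0.16 to -0.08. Leaving out an array also lowers the residual degrees of freedom, and the lone array is assumed to vary like the other group. Tpbpb (-0.14) ran from -0.31 (-0.3059) to 0.03 (0.0253), turning sign without control array 2, and neither value was called. The median difference of the members, -0.12, was -0.04 (-0.0413) after quantile normalization, -0.27 after centring, -0.01 (-0.013) after cyclic loess, -0.66 with spike-in scaling, and -0.27 and 0.28 (0.275) under the filters, which keep only the brighter members. For the shifts after quantile normalization and cyclic loess the cause was not tested. The percentage of members below the lower quartile, 78.7 in control RNAi and 80.9 in Npac RNAi, was 76.6 and 77.7 with the mean or the median of probe sets and 81.1 and 82.2 over the 45 members with a probe set of other endings than _s_at and _x_at. It was 65.96 and 67.02 against the lower quartile of all probe sets, and 85.1 in both groups with each member's dimmest probe set. No percentage was computed under the filters, which remove the dim genes.

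The replicate numbers of the titles do not pair the arrays by any label. The difference between replicates 1 and 2 correlated between groups at -0.17 across genes. With the replicate block 2 members were higher and 5 lower, and with the crossed block 2 and 8. The block took the calls on Ceacam15, Prl7b1 and Psg21 and added one on Ceacam9. Signal over background limits most members: at these levels a change may be compressed below what 2 arrays per group can show.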

Other observations

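Cathepsins other than the placental ones, chosen after the values of the members were seen, had means from 3.87 to 13.22, with 3 of 15 below the lower quartile. Of the 15 4 were higher, 1 lower and 10 not called (limma adjusted p under 0.05), against 22.1% of all genes higher and 18.7% lower. The lysosomal proteases Ctsb (0.48, SE 0.0568), Ctsd (0.30, SE 0.064), Ctsf (0.69, SE 0.0771) and Ctsl (0.23, SE 0.0449) were called higher and Ctsc (-0.58, SE 0.0463) lower. The rises of Ctsb, Ctsd and Ctsl were smaller than the 0.54 by which the spike-in controls were higher.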
